A study of Saccharomyces cerevisiae with 32 samples.

Results

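The effect of a ded1 mutation on ribosome footprints, mRNA and translational efficiency at 37 °C was set beside the effect of another ded1 mutation at 15 °C, gene by gene. Ribosome profiling sequences the mRNA fragments covered by ribosomes, and total mRNA sequenced from the same strains gives the amount of template. At 15 °C the strain ded1-cs was compared with DED1-CS, and at 37 °C the strain ded1-ts was compared with DED1-TS, all in Saccharomyces cerevisiae. DED1-CS and DED1-TS are the controls, and the authors headed their level columns WT. The labels give cold and heat sensitive names and strain numbers, but not the mutations, the plasmids or the length of the temperature shift. All 4 strains were grown in synthetic complete medium to an OD600 near 0.7, and cycloheximide was added at 100 µg/ml for 2 min before harvest. These strains account for 16 of the 32 libraries of the series, with 2 per strain and assay, 8 of footprints and 8 of mRNA. A gene was analysed if mutant and control averaged a deposited level of at least 50 in each assay in both tables. The limit is on the mean, so a gene could pass through 1 strain of a pair alone. It held for 5089 of the 5380 genes present in both tables. MOR1, whose lowest mean level was 50.03, and PDC6 at 50.2 lay just inside that limit, and YIL089W at 49.9 and PET111 at 49.7 just outside, with differences in translational efficiency of 0.47, -1.02, 0.41 and 1.14.

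Ded1 is a DEAD-box RNA helicase that helps the small ribosomal subunit attach to mRNA and scan the leader towards the start codon. It is essential in yeast, and mRNAs with long or structured leaders are known to need it most. Translational efficiency is the number of footprints relative to mRNA, so it separates a change in translation from a change in template.

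The authors deposited 1 log2 level per gene, strain and assay, which pools the libraries of that strain. There is therefore no spread between replicates, none of the differences below was tested, and sequencing depth is unknown. A change is the log2 level in the mutant minus that in its control, and the difference is the change in ded1-ts minus the change in ded1-cs. A value of 1 or more in size, which is 2-fold, is counted. Both experiments share no library, but temperature, allele and control strain differ together, so their parts in a difference cannot be told apart. The level columns carry 1 to 3 decimals, and the differences departed from those of the deposited changes by at most 0.21 in translational efficiency. A further ded1-ts pair from other libraries, the ded1-ts dbp1-deletion double mutant and the dbp1-deletion strain at 37 °C, took no part in choosing or computing the differences. Its values are the double mutant's deposited change minus that of the deletion strain, on the assumption that both are against the same WT.

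DED1 itself stood on opposite sides of the control in the mutants. Its log2 mRNA level was 13.6 in DED1-CS, 14.9 in ded1-cs, 15.3 in DED1-TS and 14.1 in ded1-ts. DED1 footprints stood at 15.83 and 18.5 at 15 °C, and at 16.94 and 15.95 at 37 °C. The mutant was thus above its control in the cold and below it in the heat in both assays, with a difference of -2.5 in mRNA and -3.66 in footprints. In the authors' deposited tables the double-mutant pair had DED1 mRNA at 1.67, and the dbp1-deletion strain alone had -2.63 against its WT. The 1.67 is counted from that low value of the deletion strain, so it does not place the double mutant above WT. DBP1, the gene of the close relative of Ded1, had log2 mRNA levels of 8.5 in DED1-CS, ded1-cs and DED1-TS, and 9.8 in ded1-ts. The ded1-ts value thus stood above its control, and the ded1-cs value did not. STE2, the receptor that marks a cells, stood between 13.1 and 13.6 in mRNA in the 4 strains, and STE3, the receptor that marks alpha cells, between 4.9 and 8.9.

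Translational efficiency changes were wider at 15 °C than at 37 °C, and most differences came from the cold side. Over the 5089 genes the standard deviation of the change was 1.10 in ded1-cs and 0.617 in ded1-ts. The change was 1 or more in 838 genes (16.5%) and -1 or less in 1112 (21.9%) in ded1-cs. The corresponding counts in ded1-ts were 128 (2.52%) and 339 (6.66%). The order was the reverse for mRNA, where the standard deviation was 0.399 in ded1-cs and 0.577 in ded1-ts. An mRNA change of 1 or more was found in 78 genes (1.53%) in ded1-cs and 224 (4.4%) in ded1-ts, and one of -1 or less in 57 (1.12%) and 179 (3.52%). Footprint changes passed 2-fold upwards in 736 genes (14.5%) in ded1-cs and 300 (5.9%) in ded1-ts, and downwards in 1021 (20.1%) and 339 (6.66%). All these counts hold for the deposited scaling. The log2 ratio of summed levels, mutant over control, was 0.525 in footprints and -0.069 in mRNA at 15 °C. At 37 °C it was -0.127 and -0.198. Equal totals would move every change by such a constant, footprints in ded1-cs the most. Counts and medians above or below the control, here and in the lists below, depend on that scaling.

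The difference in translational efficiency was 1 or more in 848 genes (16.7%) and -1 or less in 493 (9.69%). In footprints the counts were 978 (19.2%) and 730 (14.3%), and in mRNA 217 (4.26%) and 185 (3.64%). When levels were scaled to equal totals within each table and assay, the translational efficiency counts became 1598 and 74, those of footprints 1928 and 150, and those of mRNA 287 and 117. That scaling adds the same shift to every gene, 0.523 in translational efficiency, 0.652 in footprints and 0.129 in mRNA, and so leaves the order of genes as it was. A list's distance from all genes is also unchanged by it. A list median that changes sign below, or a list count that falls, does so through that shift alone. As deposited, the median difference over all genes was -0.01 in translational efficiency and footprints and 0 in mRNA, so a list's median below can be read as its distance from all genes.

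Of the 848 genes with a higher difference in translational efficiency, 592 were below -1 in ded1-cs alone and 66 were below it in both mutants. A further 162 passed 2-fold in neither mutant, 24 were above 1 in ded1-ts alone and 4 were on opposite sides. Of the 493 genes with a lower difference, 356 were above 1 in ded1-cs alone and 26 were below -1 in ded1-ts alone. The larger share on each side is thus made of genes that changed in the cold and stayed within 2-fold in the heat. Footprints differed the same way in 672 of the 848 and 303 of the 493. The mRNA difference was opposite to that of translational efficiency in 23 of the 848 and 42 of the 493. Over all genes 3.64% had an mRNA difference of -1 or less and 4.26% one of 1 or more. Translational efficiency is computed as footprints minus mRNA, so these counts are in part fixed by the arithmetic. In the authors' deposited tables the double-mutant pair had a median translational efficiency change of -0.071 over the genes of the higher class, 0.083 over those of the lower class and 0.153 over the rest. The medians of ded1-cs over the same classes were -1.54, 1.22 and 0.22, and those of ded1-ts -0.04, -0.04 and 0.11. The classes were cut on the values of ded1-cs and ded1-ts, and mostly on the wider changes of ded1-cs. Close class medians in a pair outside that choice therefore cannot show a likeness to ded1-ts. Across 5087 genes, which are not independent replicates, the ded1-ts change and that of the double-mutant pair in the authors' deposited tables had a Pearson's r of 0.82 in translational efficiency, 0.89 in footprints and 0.799 in mRNA. For the ded1-cs change and the double-mutant pair r was 0.55 in translational efficiency, 0.432 in footprints and 0.264 in mRNA. Between the ded1-cs and ded1-ts changes it was 0.595, 0.391 and 0.386 in the same order.

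**Figure D1:**
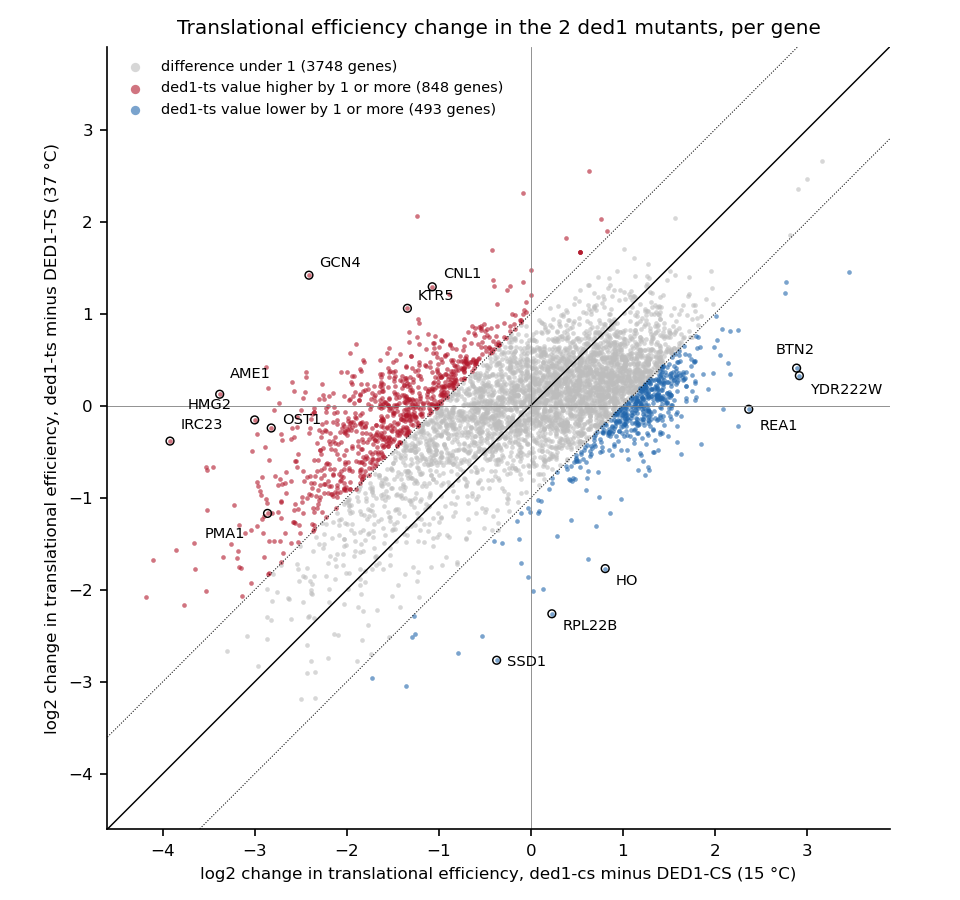
Each point is 1 of 5089 genes, with the log2 change in translational efficiency in ded1-cs against DED1-CS at 15 °C on the horizontal axis and in ded1-ts against DED1-TS at 37 °C on the vertical axis. The solid line marks equal changes, the dotted lines a difference of 1, and colours mark the 848 genes above and the 493 genes below them, most of which spread along the horizontal axis.

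The difference also varied with mRNA level. When the genes were ordered by mean mRNA level and cut into 5 groups of equal size, the median difference in translational efficiency was -0.19 in the lowest group, 0.01, 0.117 and 0.195 in the next 3, and -0.112 in the highest. The share of genes at 1 or more ran from 11.7% in the lowest group to 19.5% in the fourth and 13.6% in the highest. Genes of intermediate abundance thus stood highest, although the medians span only 0.195 on either side of 0.

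GCN4 had the highest difference in translational efficiency of all genes, at 3.83. It encodes the activator of amino acid biosynthesis genes, and its own translation is known to be controlled by short upstream reading frames. GCN4 footprints stood at a log2 level of 11.51 in DED1-CS and 9.8 in ded1-cs, against 10.83 in DED1-TS and 13.05 in ded1-ts. GCN4 mRNA stood at 13.9, 14.6, 14.4 and 15.2 in the same order. Footprints thus stood below the control at 15 °C and stood above it at 37 °C, while mRNA was above the control at both temperatures. The translational efficiency change was -2.41 in ded1-cs and 1.42 in ded1-ts. The double-mutant pair of the authors' deposited tables had 0.65 for GCN4, which has the sign of ded1-ts at a smaller size.

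The enzymes that Gcn4 is known to activate differed at the mRNA level. Of 38 amino acid biosynthesis genes, 9 had an mRNA difference of 1 or more and 0 of -1 or less, with a median of 0.30. The 9 make up 23.7%, beside 4.26% of all genes. ARG1, argininosuccinate synthetase, had log2 mRNA levels of 13.4 in DED1-CS, 11.3 in ded1-cs, 13.1 in DED1-TS and 13.6 in ded1-ts, a difference of 2.6. ARG4, argininosuccinate lyase, went from 13.4 to 12.4 at 15 °C and from 13.6 to 14.1 at 37 °C. Both arginine genes were lower than the control in the cold and higher in the heat. MET6, methionine synthase, was lower in both mutants, with mRNA changes of -1.2 and -1.9. Over the list the mRNA change had a median of -0.30 in ded1-cs and 0.05 in ded1-ts, further from 0 on the cold side. Translational efficiency of these enzymes differed by -1 or less in 6 members, 15.8% beside 9.69% of all genes, and by 1 or more in 0. Its list median of -0.26 turns to the other sign under equal totals. The double-mutant pair of the authors' deposited tables had a median mRNA change of -0.18 over the list and ARG1 at -0.67, opposite in sign to ARG1 in ded1-ts. PCL5, a Pho85 cyclin that takes part in Gcn4 turnover, had log2 mRNA levels of 11.4 and 11.2 at 15 °C and 11.4 and 13.7 at 37 °C. Its mRNA difference was 2.5, and the double-mutant pair of the authors' deposited tables had 2.39. Among the 11 regulators of the pathway, which include GCN4 itself and subunits of eIF2B, 0 passed 2-fold in the mRNA difference in either direction. In translational efficiency 2, GCN4 and the eIF2B subunit GCD7, had a difference of 1 or more. Another 2 eIF2B subunits, GCD2 and GCN3, had one of -1 or less. Each count is 18.2% of the regulators, beside 16.7% and 9.69% of all genes. GCD7 had -2.40 in ded1-cs and -0.24 in ded1-ts, GCD2 had 0.97 and -0.17, and GCN3 had 0.88 and -0.29.

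**Figure D2:**
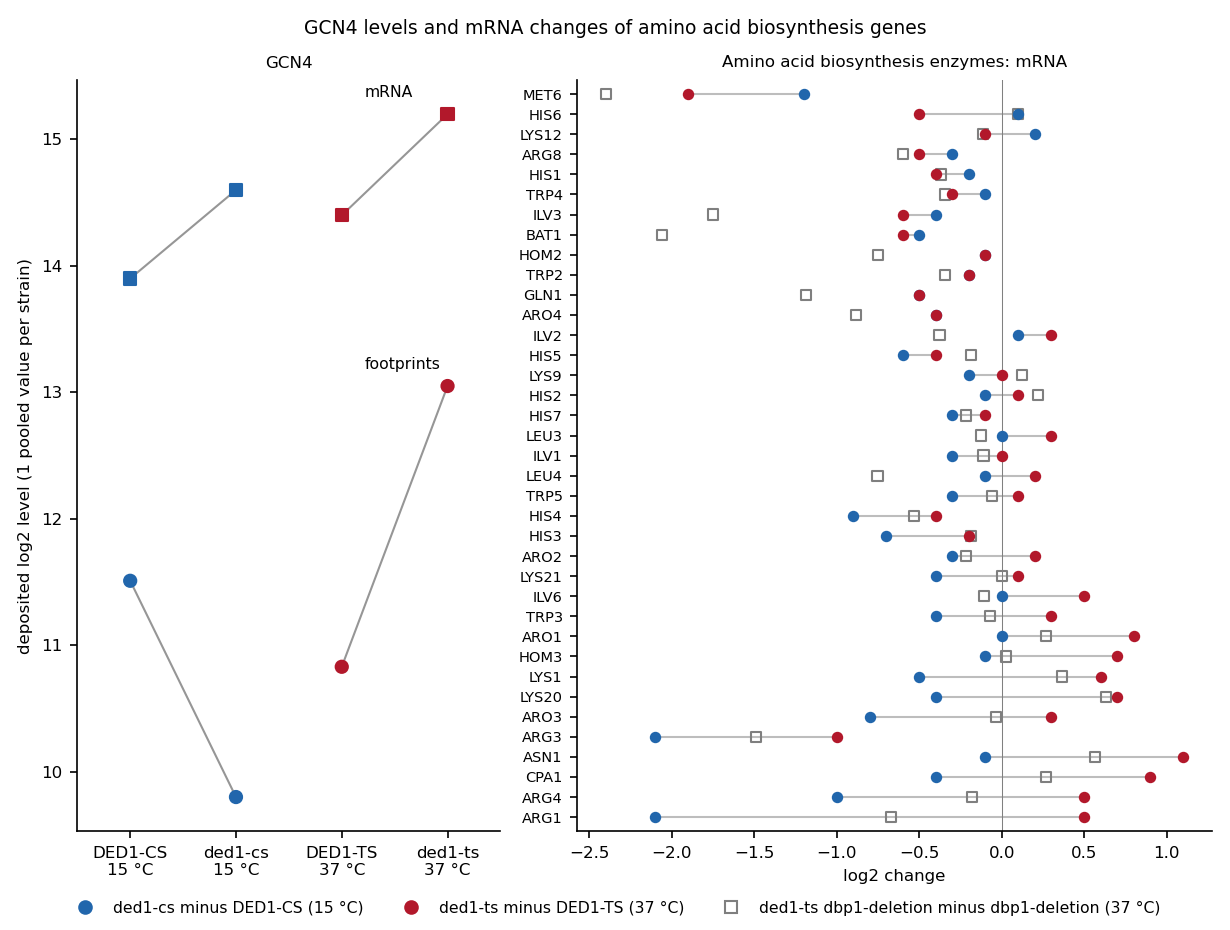
On the left are the deposited log2 levels of GCN4 footprints (circles) and mRNA (squares) in the 4 strains, 1 pooled value each; footprints go down in ded1-cs and up in ded1-ts. On the right is the log2 mRNA change of amino acid biosynthesis genes in each mutant and in the double-mutant pair, ordered by the difference, with ARG1 and ARG4 at the bottom.

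Only 3 further genes passed 2-fold in translational efficiency in opposite directions, and all were below the control in ded1-cs. KTR5, a putative mannosyltransferase of the Golgi, had -1.34 in ded1-cs and 1.06 in ded1-ts. CNL1, a subunit of the BLOC-1 complex, had -1.07 and 1.29. Both were also positive in the double-mutant pair of the authors' deposited tables, with 0.81 for KTR5 and 0.36 for CNL1. YIL060W had -1.24 and 2.06, but it overlaps another gene in the annotation, so its reads are uncertain, and its value in the authors' deposited tables was 0.27.

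Other genes at the upper end of the translational efficiency difference had far fewer footprints than the control in the cold. IRC23 had footprints at log2 levels of 7.82 in DED1-CS and 4.1 in ded1-cs, against 9.85 in DED1-TS and 9.97 in ded1-ts. AME1, a kinetochore subunit, stood at 8.58 and 5.7, against 9.11 and 9.14. HMG2, an HMG-CoA reductase of sterol synthesis, stood at 11.60 and 8.2, against 11.95 and 11.70. In these 3 genes the mutant stood far below its control at 15 °C and within 0.3 of it at 37 °C. DLT1, IRC21 and YGL081W had translational efficiency changes of -2.88, -2.85 and -3.53 in ded1-cs and 0.42, 0.19 and -0.67 in ded1-ts. Footprints of IRC23, DLT1 and YGL081W in ded1-cs, at 4.1, 4.3 and 2.9, lay below a level of 50, so these genes were analysed only through the higher level of DED1-CS, and their sizes rest on few footprints. PMA1, the proton pump of the plasma membrane, was lower in both mutants, at -2.86 and -1.17, so the difference of 1.69 came from a value closer to 0 at 37 °C. SFT2, a Golgi traffic protein, had -2.78 and -0.76 and PAB1, the poly(A) binding protein, -1.61 and -1.33. CLN3, the upstream G1 cyclin, had -1.42 and -0.89, a difference of 0.53.

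The lower end held genes of both origins. BTN2, a sorting factor for misfolded proteins, had footprints at 8.11 in DED1-CS and 14.2 in ded1-cs, against 11.40 and 13.21 at 37 °C. YDR222W had footprints at 7.28 and 10.8 in the cold, and at 11.21 and 10.64 in the heat. REA1, an ATPase of ribosome assembly, had translational efficiency at 2.37 for ded1-cs and -0.04 for ded1-ts, and TDA6 had 2.25 and -0.21. In these genes the value further from 0 was the one in the cold. SSD1, an RNA-binding translational regulator, had footprints at 12.27 and 12.2 at 15 °C and at 13.14 and 11.17 at 37 °C, with translational efficiency at -0.37 and -2.77. RPL22B, a ribosomal protein paralog with a near copy, had 0.23 and -2.26. Other libraries at 37 °C gave low values too, with -3.40 for SSD1 and -2.59 for RPL22B in the double-mutant pair of the authors' deposited tables. SER3 had 0.62 and -1.67, but it overlaps another gene, and its reads are uncertain.

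The 32 gene lists, written with earlier results of these data known, fell on both sides of the median of all genes. Their counts can be read beside the shares of all genes. These were 16.7% at 1 or more and 9.69% at -1 or less in translational efficiency. In footprints they were 19.2% and 14.3%, and in mRNA 4.26% and 3.64%. A list whose shares lie near these does not stand out by its counts. The histones had the lowest medians of any list in all 3 measures, and iron and zinc uptake had the highest median in translational efficiency and footprints. Lists whose median in 1 measure opposed that in another included ribosome biogenesis, the mitotic cyclins and the G1 genes.

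**Figure D3:**
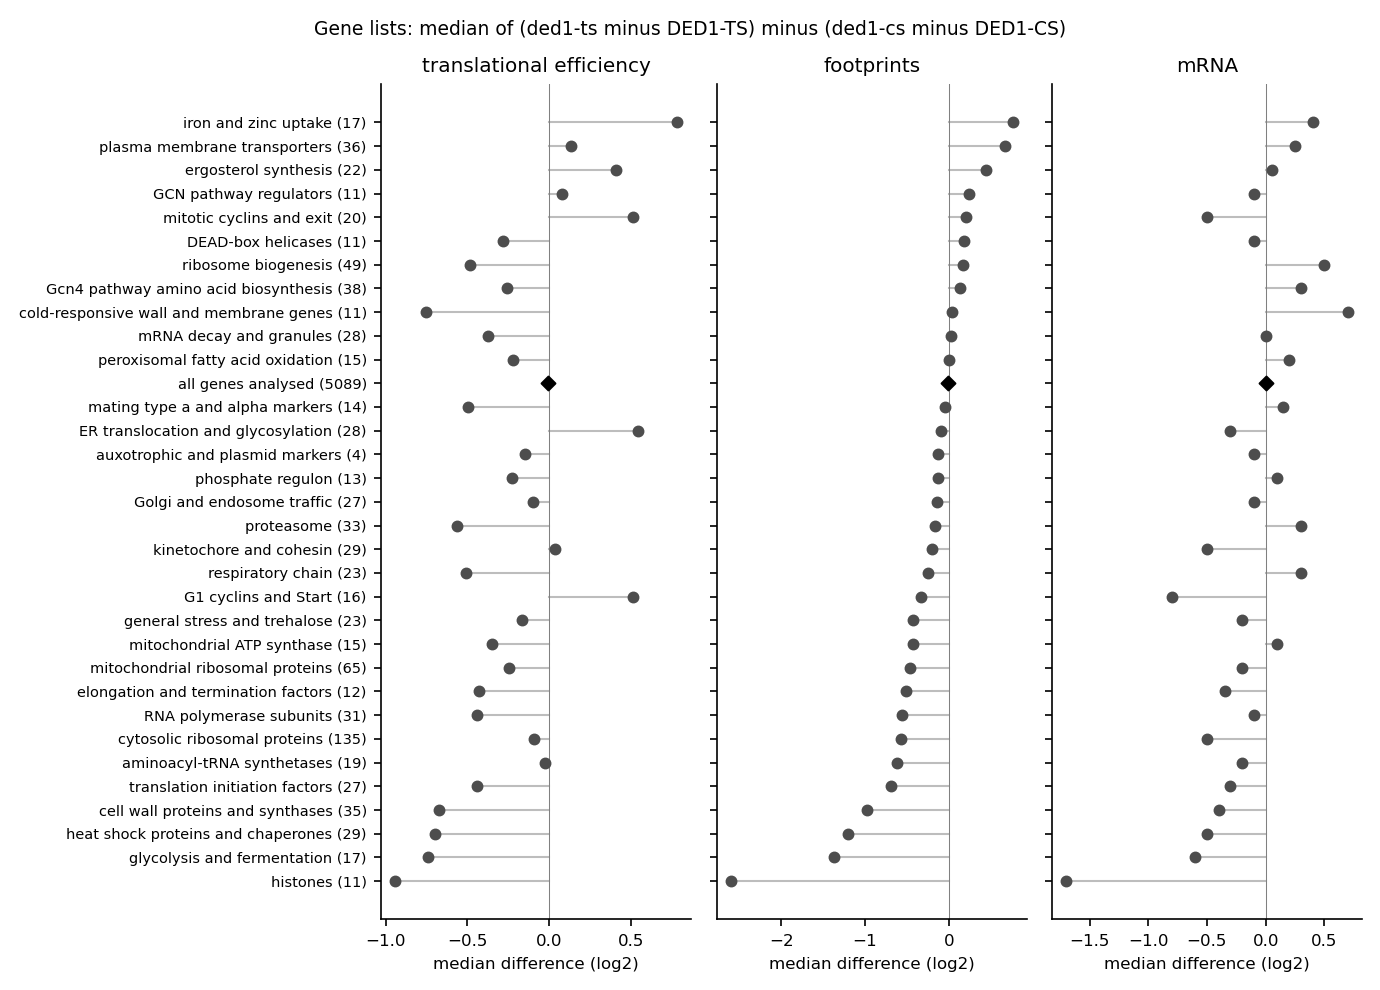
Each row is a gene list with its number of genes analysed, and each point the median over its genes of the ded1-ts change minus the ded1-cs change (log2) in translational efficiency, footprints and mRNA; diamonds mark all 5089 genes. Histones lie lowest in each panel, with medians of -0.94 in translational efficiency and -1.70 in mRNA.

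Histone genes showed the clearest difference in mRNA. Histones package DNA, and their mRNAs are known to accumulate in S phase. All 11 members had a footprint difference of -1 or less, and 10 of 11 an mRNA difference of -1 or less, with medians of -2.60 and -1.70. Over all genes the shares at -1 or less were 14.3% and 3.64%. HTB2, a histone H2B gene, had log2 mRNA levels of 11.7 in DED1-CS, 11.8 in ded1-cs, 13.3 in DED1-TS and 11.0 in ded1-ts. HTA2, a histone H2A gene, had 13.1, 13.0, 13.6 and 11.1 in that order. HHO1, the linker histone, had 10.7, 10.2, 10.9 and 8.9. These genes differed from the control by 0.5 or less in the cold and by 2.0 or more in the heat. The mRNA change over the list ran from -0.5 to 0.2 in ded1-cs and from -2.5 to -0.9 in ded1-ts. Footprints added to the difference from the cold side, where 10 of 11 members were above the control and the median change was 0.92. Translational efficiency was at 1 or more in 6 of 11 members in ded1-cs and 0 of 11 in ded1-ts. Scaling to equal totals left 9 of 11 footprint and 10 of 11 mRNA differences at -1 or less, while the 5 translational efficiency differences at -1 or less became 0. In other libraries, those of the double-mutant pair of the authors' deposited tables, the median mRNA change over the list was -1.95, with HTB2 at -3.41. Most histone genes have a near copy, so reads can be shared between HTA1 and HTA2, between HTB1 and HTB2, and between the H3 and the H4 pairs. In bulk cultures fewer cells in S phase and less histone mRNA per cell cannot be told apart.

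Genes of the G1 to S transition were also lower in mRNA in ded1-ts, with 6 members at -1 or less against 0 in ded1-cs. Of 16 G1 cyclins and Start regulators, 7 had an mRNA difference of -1 or less and 0 of 1 or more, with a median of -0.80. Those 7 are 43.8%, beside 3.64% of all genes. PCL1, a G1 cyclin of the Pho85 kinase, had log2 mRNA levels of 10.5 and 10.8 at 15 °C and of 12 and 9.6 at 37 °C. CLN2, a G1 cyclin of Cdc28, had 11.1 and 11.2, against 12.1 and 9.7. CLN1 had 10.4 and 11.0, against 10.7 and 9.4, and the S-phase cyclin CLB6 had 7.8 and 7.3, against 9.2 and 6.9. All 4 genes were within 0.6 of the control in the cold and lower by 1.3 or more in the heat. Values of the same sign were found in the double-mutant pair of the authors' deposited tables, with PCL1 at -3.80, CLN2 at -3.10, CLN1 at -2.48 and CLB6 at -4.40 in mRNA. Transcription factors of the same step had another layout, with a higher difference in translational efficiency and little in mRNA. SWI4 had -2.15 in ded1-cs and -0.98 in ded1-ts in translational efficiency, and SWI6 -1.76 and -0.36. SIC1, the inhibitor of S-phase cyclins, had -1.21 and 0.14. The translational efficiency difference was 1 or more in 5 of 16 members and -1 or less in 1, WHI5, a repressor of the G1 transcription factors. These are 31.2% and 6.25%, beside 16.7% and 9.69% of all genes. Among other cell cycle genes, MCD1, the cohesin kleisin, had log2 mRNA levels of 9.7 and 9.8 at 15 °C and 10.4 and 8.8 at 37 °C. PDS1, securin, had 8.6 and 8.9, against 10.2 and 9.0. HO, the mating-type switching endonuclease transcribed in G1, had 10 and 9.2, against 11.1 and 7.4. HO footprints gave the lowest difference of all genes, at -5.48, from 10.49 and 10.5 in the cold and 11.14 and 5.67 in the heat, and the double-mutant pair in the authors' deposited tables had -5.22. TOS6, a cell wall protein chosen after its values were seen, had mRNA at 9.8 and 9.7, against 11.0 and 8.5. The median footprint difference of the G1 list, -0.34, turns to the other sign under equal totals.

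**Figure D4:**
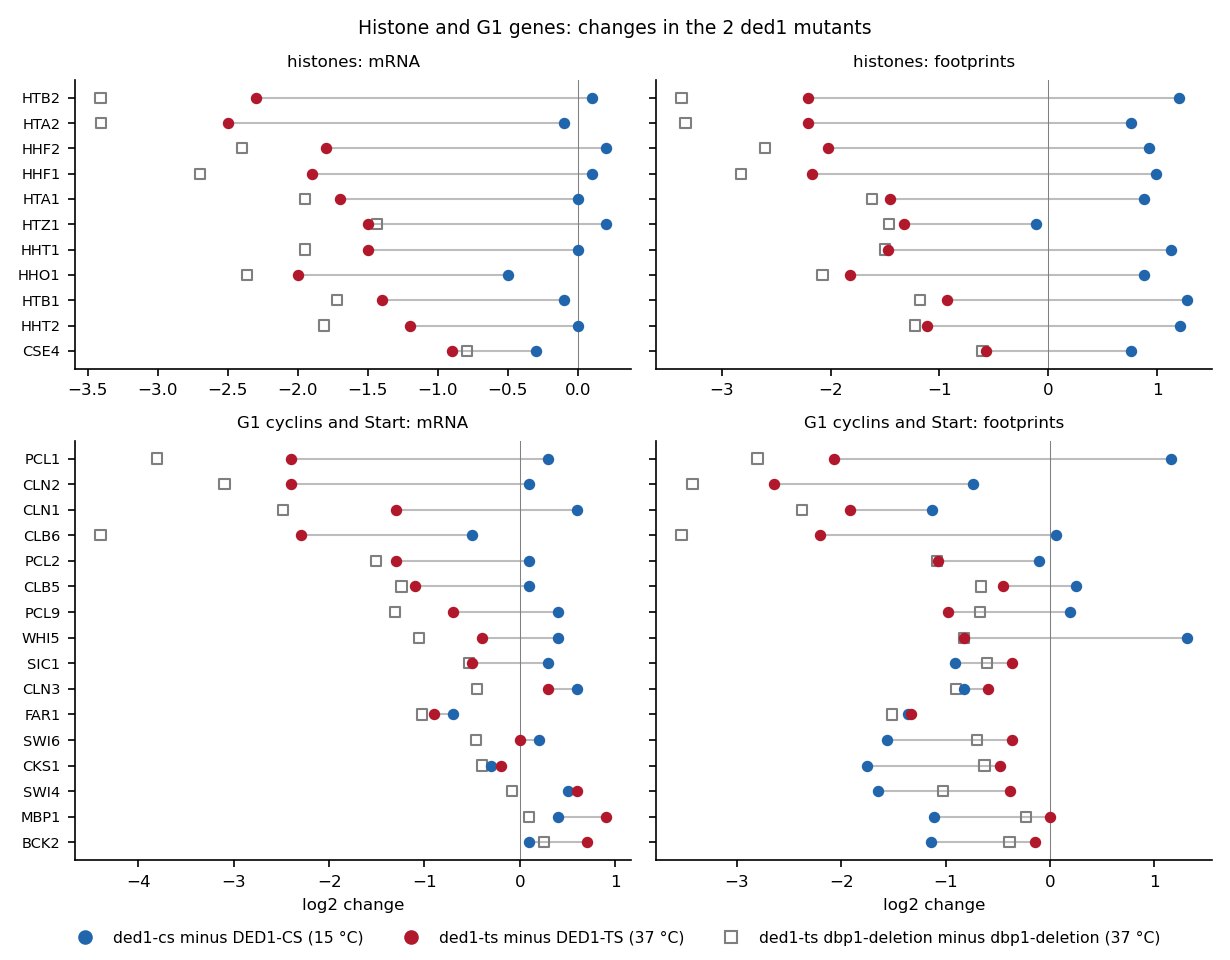
Log2 changes in mRNA (left) and footprints (right) of 11 histone genes (top) and 16 G1 cyclins and Start regulators (bottom), each row a gene ordered by its mRNA difference. Filled points are ded1-cs at 15 °C and ded1-ts at 37 °C, joined by a line, and open squares the double-mutant pair at 37 °C; histone mRNA lies between -0.5 and 0.2 in ded1-cs and between -2.5 and -0.9 in ded1-ts.

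Mitotic genes stood higher in the translational efficiency difference and lower in the mRNA difference. Of 20 mitotic cyclins and regulators of mitotic exit, 6 had a translational efficiency difference of 1 or more and 1 of -1 or less. The share at 1 or more was 30%, beside 16.7% of all genes, and the median 0.52. In mRNA 0 had a difference of 1 or more and 3, CLB1, PDS1 and SWE1, of -1 or less, with a median of -0.50. Those 3 are 15% of the list, beside 3.64% of all genes. In translational efficiency CLB1, a mitotic cyclin with a near copy, had -2.73 in ded1-cs and -0.80 in ded1-ts. SWI5, a transcription factor of the M to G1 step, had -2.25 and -0.67, and CLB3, another B-type cyclin, -1.78 and -0.39. BUD4, a bud neck protein, was the member at -1 or less, with 0.50 and -0.60. The list had no member above 1 in either mutant, and the number below -1 was 10 in ded1-cs and 4 in ded1-ts. Among 29 kinetochore and cohesin genes, 8 stood at 1 or more and 0 at -1 or less in the translational efficiency difference, but their median was 0.03. The 8 are 27.6%, beside 16.7% of all genes. SLK19, a kinetochore and spindle protein, had -3.66 and -1.49, and CHL4, another kinetochore subunit, -2.59 and -0.24. CHL4 footprints in ded1-cs lay below a level of 50. In footprints 4 members of the list stood at 1 or more and 8, or 27.6%, at -1 or less, beside 14.3% of all genes. In mRNA 1 stood at 1 or more and 3, MCD1, SPC24 and DUO1, at -1 or less, with a median of -0.50. The latter are 10.3%, beside 3.64% of all genes. DUO1 lay at -1.0 in the rounded levels, and with the deposited changes the count was 2.

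Most chaperone genes were above the control in both mutants, and further above it in the cold. Chaperones help proteins fold, and many are induced when proteins misfold. The footprint difference was -1 or less in 15 of 29 members, 51.7% beside 14.3% of all genes. It was 1 or more in 0, with a median of -1.20. The median footprint change was 1.78 in ded1-cs and 0.47 in ded1-ts, and 19 and 8 members were at 1 or more. HSP104, the disaggregase, had log2 footprint levels of 13.95 in DED1-CS and 16.6 in ded1-cs, and of 15.82 in DED1-TS and 16.64 in ded1-ts. SSA4, an inducible Hsp70 with near copies, had 9.73 and 13.7, against 12.53 and 14.08. HSP30, a plasma membrane heat shock protein, had 6.04 and 11.4, against 10.70 and 13.13. All 3 stood above the control in both experiments, by more in the cold. Part of the difference was in mRNA, as in BTN2, with 8.2 and 11.4 at 15 °C and 10.5 and 11.9 at 37 °C, and part in translational efficiency, as in FES1, an Hsp70 exchange factor. FES1 mRNA changed by 0.7 and 0.4, and its translational efficiency by 2.17 and 0.35. SSA3, another inducible Hsp70, had footprints at 4.54 and 8.4, against 7.89 and 9.64, but its DED1-CS value lay below a level of 50, so it was analysed only through its higher level in ded1-cs. Over the list, translational efficiency differed by -1 or less in 9 members and by 1 or more in 1, AHA1, an Hsp90 co-chaperone. These are 31% and 3.45%, beside 9.69% and 16.7% of all genes. HSP26, a small heat shock protein, went the other way in mRNA, from 8.5 to 9.5 in the cold and from 11.3 to 13.5 in the heat. SSC1, the mitochondrial Hsp70, and YDJ1, an Hsp40, were near 0, with footprint differences of 0.10 and -0.03. Under equal totals 6 of 29 footprint differences were at -1 or less and 2 at 1 or more. ROQ1, which redirects a ubiquitin ligase to misfolded proteins, is no member of the list and was chosen after its values were seen. Its log2 footprint levels of 6.05 and 10.5 at 15 °C and of 9.02 and 10.41 at 37 °C followed the layout of HSP30.

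**Figure D5:**
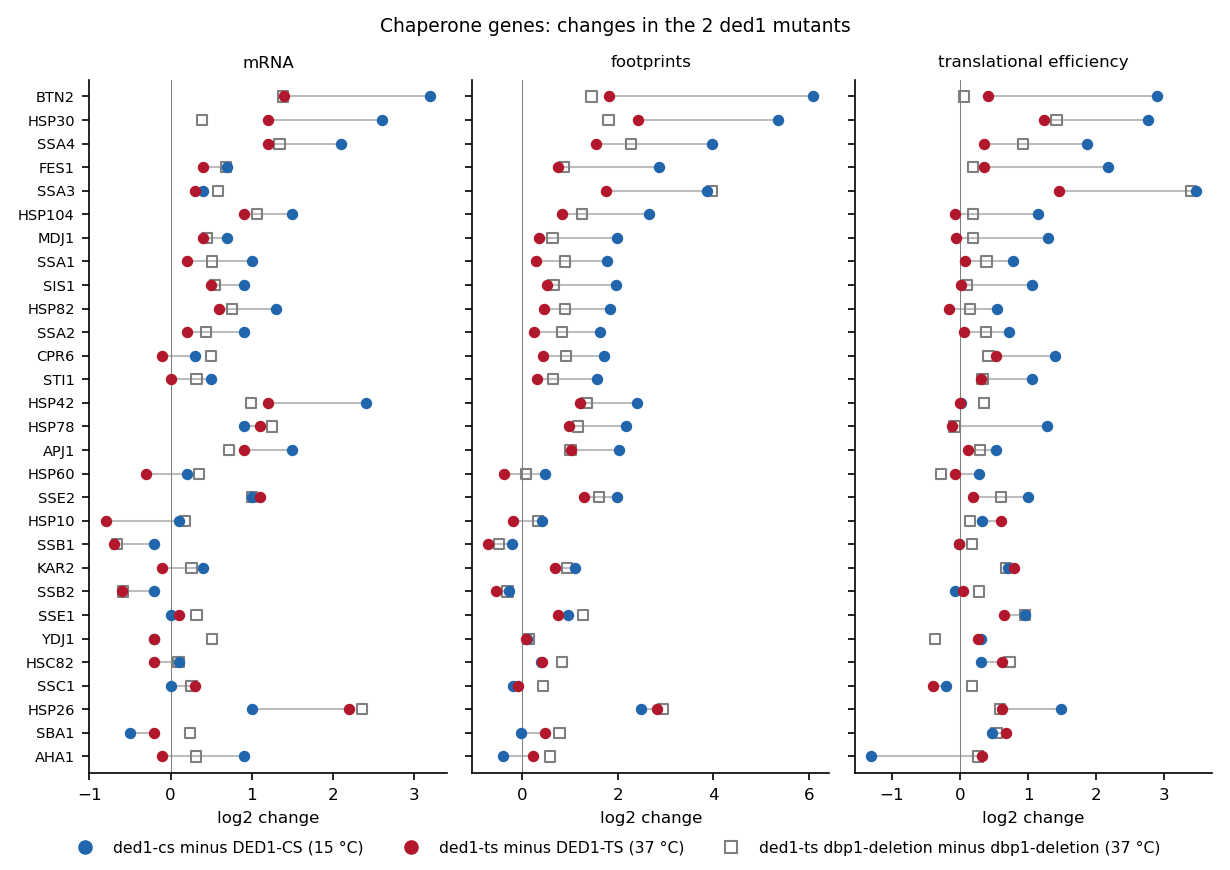
Log2 changes in mRNA, footprints and translational efficiency of 29 chaperone genes, ordered by their footprint difference. In footprints most ded1-cs points lie to the right of the ded1-ts points, with medians of 1.78 and 0.47, and the open squares of the double-mutant pair lie nearer to ded1-ts, with a median of 0.90.

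Cell wall genes were lower in ded1-ts, while several were above the control in ded1-cs. Of 35 cell wall proteins and synthases, 17 had a footprint difference of -1 or less, 48.6% beside 14.3% of all genes. A difference of 1 or more was found in 0, and the median was -0.97. CWP1, a wall mannoprotein, had log2 footprint levels of 13.5 and 12.8 at 15 °C and of 15.06 and 9.05 at 37 °C. Its mRNA stood at 12 and 11.4, against 12.7 and 8.4, which gave the lowest mRNA difference of all genes, -3.7. PIR1, a covalently linked wall protein, had footprints at 14.48 and 15.8, against 14.99 and 13.59, and CIS3, of the same family, at 15.09 and 15.6, against 16.05 and 13.98. The other libraries at 37 °C also gave lower footprint values, with changes of -6.15 for CWP1, -1.32 for PIR1 and -1.92 for CIS3 in the double-mutant pair of the authors' deposited tables. Over the list the median change of that pair was -0.58 in footprints but 0.40 in translational efficiency. The latter is opposite in sign to the median of -0.21 in ded1-ts. PST1, a mannoprotein induced by wall damage, had footprints at 11.87 and 14.1, against 13.69 and 13.14. CHS2, the chitin synthase of the septum, went the other way in translational efficiency, with -2.29 in ded1-cs and -0.48 in ded1-ts. KRE6 and CHS3, a glucan and a chitin synthesis gene, were lower in both mutants, at -2.47 and -1.84 for KRE6 and at -2.12 and -1.74 for CHS3, with little difference. The list counts were 13 at -1 or less and 2 at 1 or more in translational efficiency, and 11 and 3 in mRNA. In translational efficiency these are 37.1% and 5.71%, beside 9.69% and 16.7% of all genes. In mRNA they are 31.4% and 8.57%, beside 3.64% and 4.26%. With the deposited changes the counts were 12 and 2, and 9 and 2. With equal totals 11 of 35 footprint differences stayed at -1 or less, and 5 stood at 1 or more.

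Genes of the secretory pathway included subunits of the same complexes on both sides of the control. Of 28 genes for ER translocation, signal peptide cleavage and N-glycosylation, 10 had a translational efficiency difference of 1 or more, 35.7% beside 16.7% of all genes. Only 1, SPC1 of the signal peptidase, had one of -1 or less. OST1, a subunit of the oligosaccharyltransferase, had log2 footprint levels of 12.62 and 9.5 at 15 °C and of 13.20 and 12.76 at 37 °C. OST3 of the same complex had 11.87 and 9.9, against 12.64 and 12.40. SEC62, which acts in translocation after translation, had 11.49 and 9.4, against 11.93 and 11.37. Their footprint changes ran from -3.12 to -1.97 in the cold and from -0.56 to -0.24 in the heat. SEC61, the translocon pore, and its homolog SSH1 were lower in both, with translational efficiency at -2.49 and -1.04 for SEC61 and at -2.81 and -1.16 for SSH1. OST5, SEC66 and SEC72, other subunits of these complexes, were at 1.14, 1.45 and 1.53 in ded1-cs and at 0.52, 0.85 and 0.59 in ded1-ts. In the sterol pathway 5 of 22 members stood at 1 or more and 2 at -1 or less. Their shares of 22.7% and 9.09% compare with 16.7% and 9.69% of all genes. ERG24 had translational efficiency at -1.62 and 0.34 and ERG2 at -1.15 and 0.20, while ERG5 had 1.29 and -0.11. The footprint median of the ER list, -0.09, turns to the other sign under equal totals. Of 27 Golgi and endosome genes 5 stood at 1 or more and 4 at -1 or less, which is 18.5% and 14.8%. SEC21 and COP1, subunits of the COPI coat, had -3.34 and -1.65 for SEC21 and -2.19 and -0.38 for COP1. SEC7, an Arf exchange factor, was lower at 37 °C than at 15 °C, with -1.72 and -2.95, and -3.01 in the double-mutant pair of the authors' deposited tables.

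Iron and zinc uptake genes stood further below the control in the cold. Of 17 iron and zinc uptake genes, 5 had a translational efficiency difference of 1 or more, 29.4% beside 16.7% of all genes. A difference of -1 or less was found in 0, and the median was 0.79. CTR1, the copper transporter, had log2 footprint levels of 8.97 and 6.6 at 15 °C and of 10.68 and 10.72 at 37 °C. ZRT2, a zinc transporter, had 11.27 and 8.2, against 11.07 and 9.87. FET3, the multicopper oxidase of iron uptake, stood at 13.38 and 10.5, against 13.10 and 9.57. FET3 footprints were lower in both mutants, while its mRNA was lower in the heat alone. Its mRNA was 11.6 and 11.7 in the cold, and 11.7 and 9.0 in the heat, so translational efficiency stood at -2.98 for ded1-cs and -0.83 for ded1-ts. FET3 mRNA in the double-mutant pair of the authors' deposited tables stood at -0.79, smaller in size than in ded1-ts. Among 36 plasma membrane transporters 9 stood at 1 or more and 2 at -1 or less in translational efficiency. These are 25% and 5.56%, beside 16.7% and 9.69% of all genes. PDR12, a weak acid pump, had footprints at 11.73 and 10.4, against 11.36 and 12.86, and MEP2, an ammonium permease, at 8.54 and 7.4, against 8.63 and 9.89. DUR3, a urea transporter, stood at 8.77 and 9.5, against 7.01 and 10.36. HXT2, a glucose transporter, had mRNA at 12.7 and 13.1 in the cold and 9.9 and 8.3 in the heat. HXT6 and HXT7, near copies of one another, had mRNA differences of -1.9. SNQ2, a multidrug pump, was the lowest member in translational efficiency, with -0.53 and -2.50, and -2.61 in the double-mutant pair of the authors' deposited tables.

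Genes of glycolysis had lower differences in footprints. Of 17 glycolytic and fermentative genes, 13 had a footprint difference of -1 or less and 0 of 1 or more, with a median of -1.37. Those 13 are 76.5%, beside 14.3% of all genes. ADH1, alcohol dehydrogenase, had log2 footprint levels of 18.18 and 19.1 at 15 °C and of 19.15 and 18.04 at 37 °C. FBA1, aldolase, had 18.83 and 20.2, against 19.13 and 19.03. The footprint change had a median of 1.12 in ded1-cs and -0.24 in ded1-ts. Under equal totals 2 of 17 differences stood at -1 or less, beside 150 of all 5089 genes. PFK1, a phosphofructokinase subunit, was an exception, with translational efficiency at -1.73 and -0.91. Of 135 cytosolic ribosomal protein genes 23 had a footprint difference of -1 or less, which is 17% beside 14.3% of all genes, and 0 of 1 or more, and their median of -0.57 turns to the other sign under equal totals. Their median translational efficiency change was 0.68 in ded1-cs and 0.56 in ded1-ts, while mRNA changed by -0.10 and -0.60. RPL3 mRNA, which has no near copy, went from 16.4 to 16.5 in the cold and from 17 to 16 in the heat. Many of these genes have near copies, and their reads can be shared.

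Ribosome biogenesis genes had medians of opposite sign in the differences of mRNA and translational efficiency, as deposited. Of 49 members, 8 had an mRNA difference of 1 or more, 16.3% beside 4.26% of all genes, and 0 of -1 or less. The median was 0.50. MAK5, a helicase of large subunit assembly, had log2 mRNA levels of 11.7 and 11.0 at 15 °C and 9.9 and 10.7 at 37 °C. The mRNA change of the list ran from -0.8 to -0.2 in ded1-cs, so every member stood below the control in the cold, and from -0.8 to 0.8 in ded1-ts. Translational efficiency differed by -1 or less in 7 members, among them NOP7 with 1.20 and -0.54, and by 1 or more in 3. UTP22, a small subunit processome protein, was the highest of these, with -2.90 and -1.20. The 7 and 3 are 14.3% and 6.12% of the list, beside 9.69% and 16.7% of all genes. Footprints had the sign of mRNA, with a median difference of 0.17. In footprints 8 members stood at 1 or more and 3 at -1 or less. These are 16.3% and 6.12%, beside 19.2% and 14.3% of all genes. The translational efficiency median of -0.48 becomes 0.04 under equal totals, which adds 0.523 to every gene. The shift in mRNA is also upward, so the positive mRNA median could not change sign. Over the same list the double-mutant pair of the authors' deposited tables had a median mRNA change of -0.13, beside -0.10 in ded1-ts.

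The translation factors and respiratory genes named here mostly had translational efficiency changes further from 0 in the cold, where changes were wider over all genes too. In mRNA the median change of the initiation factors was -0.2 in ded1-cs and -0.4 in ded1-ts. That of the respiratory chain was -0.2 and -0.1. Among 27 initiation factors 5, DED1 included, had a translational efficiency difference of -1 or less and 1, GCD7, of 1 or more. These are 18.5% and 3.7%, beside 9.69% and 16.7% of all genes. FUN12, which encodes eIF5B and joins the ribosomal subunits, had 1.37 in ded1-cs and -0.15 in ded1-ts, and TIF11, eIF1A, had 1.98 and 1.10. In the respiratory chain 5 of 23 members, or 21.7%, stood at -1 or less in translational efficiency and 0 at 1 or more. QCR7 of complex III had 1.62 and 0.48, and CYC1, cytochrome c with a near copy, 1.54 and 0.01. ATP2, the catalytic subunit of the ATP synthase, was lower in both mutants, with -3.18 and -1.58, and ATP5 of the same enzyme in the cold alone, with -1.90 and -0.27. In the proteasome list RPN4, the transcription factor of proteasome genes, had mRNA at 11.6 and 11.7 in the cold and 11.7 and 13.0 in the heat, and footprints at 11.11 and 9.6, against 11.57 and 12.64. Its mRNA change in the double-mutant pair of the authors' deposited tables was 1.38, beside 1.3 in ded1-ts. The medians of the respiratory chain and the initiation factors, -0.51 and -0.44, both turn positive under equal totals, at 0.01 and 0.08.

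Of 65 mitochondrial ribosomal protein genes, 11 had a translational efficiency difference of 1 or more and 14 of -1 or less. These shares, 16.9% and 21.5%, compare with 16.7% and 9.69% of all genes. The median of -0.24 turns to the other sign under equal totals. MRPL7 had translational efficiency at -2.35 for ded1-cs and -0.02 for ded1-ts, and MRPL24 at 1.69 and 0.09. Both genes, of the large subunit, were thus near the control in the heat. YEF3, the fungal elongation factor eEF3, had log2 footprint levels of 17.53 and 16.2 at 15 °C and of 18.17 and 18.41 at 37 °C, and was the 1 of 12 elongation and termination factors at 1 or more, with 0 at -1 or less. Of 19 aminoacyl-tRNA synthetases 2 stood at 1 or more, among them ALA1 with -2.05 and -0.24, and 4 at -1 or less, among them WRS1 with 1.69 and 0.05. The synthetase shares are 10.5% and 21.1%. RPB7 and RPB4, which form the stalk of RNA polymerase II, were lower in both mutants, at -3.77 and -2.17 for RPB7 and at -2.28 and -0.70 for RPB4. Of 31 polymerase subunits 3 stood at 1 or more and 2 at -1 or less, or 9.68% and 6.45%. Of 28 genes of mRNA decay and granules 5 stood at 1 or more and 1 at -1 or less. These are 17.9% and 3.57%, beside 16.7% and 9.69% of all genes. NGR1, an RNA-binding protein, had -2.28 and -0.79, and DHH1, a decapping activator and DEAD-box helicase, -1.31 and -0.15. SUB2, a DEAD-box helicase of mRNA export, had -1.77 and 0.02, and DBP2, another member of that family, had mRNA at 14.7 and 13.6 in the cold and 11.8 and 9.4 in the heat. In all, 2 of 11 DEAD-box genes stood at 1 or more and 2 at -1 or less, each 18.2%.

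Stress and nutrient lists other than the chaperones were mixed. Of 23 general stress and trehalose genes 2 had a translational efficiency difference of 1 or more and 4 of -1 or less. These are 8.7% and 17.4%, beside 16.7% and 9.69% of all genes. GPH1, glycogen phosphorylase, had -2.31 in ded1-cs and -0.59 in ded1-ts, and DDR48, a stress protein, 1.52 and -0.02. HSP12, a membrane stress protein, had log2 mRNA levels of 11.5 and 10.8 at 15 °C and of 14 and 12.3 at 37 °C. Of 11 genes listed as cold-responsive, 3 had an mRNA difference of 1 or more and 0 of -1 or less, but all 3 lay at 1.0 in the rounded levels, and with the deposited changes the count was 1. OLE1, the fatty acid desaturase, had mRNA at 15.3 and 14 in the cold and at 12.3 and 12 in the heat, so the mutant was lower in both. FAD1, FAD synthetase, had footprints at 9.44 and 8.2, against 9.61 and 10.73, and TIR4, a wall mannoprotein, at 6.51 and 8.8, against 6.45 and 6.82. In the phosphate regulon 0 of 13 members stood at 1 or more in translational efficiency and 1, PHM8, at -1 or less. Among 15 peroxisomal genes 1 stood at 1 or more, CRC1, a carnitine carrier whose DED1-CS footprints lay below a level of 50, with -0.40 and 1.31, and 2 at -1 or less. The proteasome had 2 of 33 members at 1 or more and 4 at -1 or less in translational efficiency, or 6.06% and 12.1%. The peroxisomal shares were 6.67% and 13.3%. Of 14 mating-type markers 0 stood at 1 or more and 2, HO and AGA2, at -1 or less, and 0 of 4 auxotrophic markers passed 2-fold in either direction in any measure.

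Among the remaining extremes of mRNA were genes far above the control in the heat. NCA3, a SUN family gene, had log2 mRNA levels of 9.5 and 8.8 at 15 °C and 8.6 and 11.4 at 37 °C, the highest difference of all genes at 3.5. ECM13 had 5.8 and 6.1, against 6.2 and 9.5, and OYE3, an NADPH oxidoreductase, 7.2 and 7.4, against 6.8 and 9.2. RGM1, a putative transcriptional repressor, had 7.3 and 7.6, against 5.1 and 7.5. Of these 4 genes, 3 lay within 0.3 of the control in the cold and NCA3 lay below it, and all were above it by 2.4 or more in the heat. Positive values were also found in the double-mutant pair of the authors' deposited tables, with NCA3 at 2.84, ECM13 at 3.52, OYE3 at 3.65 and RGM1 at 1.72 in mRNA. NQM1, a transaldolase, differed by 2.3 through lower mRNA in the cold, with 10.6 and 8.7, against 10.1 and 10.5. CIP1, an inhibitor of G1 cyclin kinase, and RGI1 passed 2-fold in opposite directions in mRNA, with changes of 1.7 and -1.1 for CIP1 and of 1.0 and -1.0 for RGI1. YOR192C-C gave the highest footprint difference, 4.09, with log2 footprint levels of 7.58 and 5.4 in the cold and 8.36 and 10.27 in the heat. Its footprint change in the double-mutant pair of the authors' deposited tables was -0.13, unlike that of ded1-ts. STB6, with footprints at 9.51 and 7.0, against 9.91 and 10.80, and YBR184W, with 3.71 and 6.8, against 7.99 and 7.55, complete the extremes of footprints. YBR184W in DED1-CS and YOR192C-C in ded1-cs lay below a level of 50 in footprints and mRNA, as did RGM1 in DED1-TS, and these genes were analysed only through the other strain of the pair. ECM13 in both controls and OYE3 in DED1-TS were below that level in footprints alone.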

How the data were processed

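Per the labels' protocols, cells were filtered and frozen, and footprints were made with RNase I. Per the submitters' processing notes, CASAVA 1.8, Bowtie2 2.6.0, TopHat2 2.1.0 and DESeq2 were used on sacCer2, with no role or order given. For each gene the authors deposited a log2 level and a log2 change, 1 pooled value per strain and assay, with every table scaled separately. The base of the logarithm is inferred from how large the values are. Of the level columns, 4 WT columns of the dbp1-deletion tables match no sample of the series and were not used. The deposited changes of both strains of the double-mutant pair are each against the WT of their own table, and these were assumed to be the same WT.

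Changes and differences were computed from the rounded level columns (Python 3.11.15, pandas 2.3.3), with no test, since the values used are pooled over libraries. The planned edgeR model was therefore not run, nor were the planned sequence features, since no sequence of the build was used. The computation was tested on simulated data. Symbols and overlaps came from a RefSeq annotation of another build, which matched 5087 of 5089 genes, so no positions are given. Of the genes analysed, 79 overlap another gene and 169 are marked as having a near copy.

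Earlier results of these data were known when the members, the gene lists and the naming rule were chosen. The rule takes the 8 genes at each end of each difference, genes with opposite 2-fold changes in translational efficiency, up to 3 members per list, measure and direction past 2-fold, and DED1, DBP1, GCN4, PMA1, SFT2, CLN3 and PAB1. Not every gene it picks is printed. Named outside it, after their values were seen, are CHS3, FBA1, HSP104, KRE6, PFK1, QCR7, ROQ1, SEC61, SEC62, SEC66, SSC1, SSH1, STE2, TOS6 and YDJ1. A gene of the amino acid biosynthesis list is counted in that list but not reported here on its own.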

Additional observations from a re-analysis of the deposited data

Results flagged for a closer look

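Genes whose changes were 2-fold or more in both mutants but in opposite directions are given here with the change in ded1-ts minus that in ded1-cs. The difference was not tested for any of them, since the values are pooled. In translational efficiency these were GCN4 at 3.83, YIL060W at 3.30, KTR5 at 2.40 and CNL1 at 2.36, all below the control in ded1-cs and above it in ded1-ts. In mRNA they were CIP1 at -2.8, DED1 at -2.5 and RGI1 at -2.0, all above the control in ded1-cs and below it in ded1-ts.

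In footprints 32 genes met the same condition, 17 of them below the control in ded1-cs. Among the genes picked by the naming rule, those above the control in ded1-ts were YOR192C-C at 4.09, GCN4 at 3.93, RGM1 at 3.39, YIL060W at 3.20, PDR12 at 2.83, KTR5 at 2.80, CNL1 at 2.66, RPN4 at 2.58, MEP2 at 2.40, FAD1 at 2.36 and ARN2 at 2.31. Those below the control in ded1-ts were RGI1 at -3.59, HTB2 at -3.41, PCL1 at -3.23, PIR1 at -2.72, CYC1 at -2.53, HXT7 at -2.45, HXT6 at -2.45, PIR3 at -2.43 and HHT2 at -2.33. FAD1 makes the cofactor FAD, ARN2 takes up iron chelates, and PIR3 is a wall protein of the PIR1 family. HXT6, HXT7, CYC1, HTB2 and HHT2 have near copies.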

How the results depend on the processing

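Scaling each table and assay to equal totals moved the counts of differences to 1598 higher and 74 lower in translational efficiency, 1928 higher and 150 lower in footprints, and 117 lower in mRNA. All counts of differences stayed within 1.5 times those reported under the deposited change columns, centring on the median, a minimum level of 200, no minimum level, and without overlapping genes. Of the list medians and named gene values, all 96 and all 732 moved by no more than the rounding of the levels under the deposited change columns and under centring. Equal totals adds 1 constant per measure, 0.523 in translational efficiency, 0.652 in footprints and 0.129 in mRNA, which is larger than the rounding in the first 2, so all 64 list medians and 488 gene values of those moved by construction. No paired analysis was possible because the tables hold 1 pooled value per strain and assay. For the same reason leaving out each replicate and the replicate block were not run.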
